A study of Homo sapiens with 24 samples.

Results

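Genes of mitosis and the G2/M transition form the subject of the measurements below: 36 genes, taken by symbol from the 26364 genes of the deposited count table. All 36 had enough reads to enter the tests, which covered 15757 genes. Their transcripts were sequenced from N/TERT-1 cells (nTERT-1 in the labels), a human keratinocyte line that has been immortalised. The genotypes were KAT2A_KD, KAT2B_KD, KAT2AB_KD and NT, each at the Subconfluent, Confluent and Differentiated stages, which gave 12 groups of 2 libraries. By its label, the treatment of every library was keratinocyte differentiation, and a deposited sample table puts the Differentiated stage at day 4. KAT2A and KAT2B are paralogous histone acetyltransferases of the SAGA and ATAC coactivator complexes, and KD in a name stands for knockdown of the gene or genes before it. NT is not spelled out in the labels, which also leave out the knockdown method and whether both libraries of a group were separate cultures. The p-values therefore measure only the spread between these libraries, which may be technical.

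A cell enters mitosis when cyclin B bound to the kinase CDK1 becomes active, and mitotic kinases, the kinetochore and the spindle then align and separate the chromosomes before cytokinesis divides the cell. The genes for these proteins are transcribed together late in the cell cycle and are held down outside it by the DREAM complex, which acts through a promoter element called CHR (cell cycle genes homology region), while the activators B-MYB, FOXM1 and NF-Y, a factor that binds CCAAT boxes, raise them in cycling cells. Keratinocytes leave the cell cycle as they differentiate, so transcripts of this kind mark the cells that still divide.

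Promoter windows are shown for 5 genes in which the CHR letters and at least 2 CCAAT boxes stand together, since this arrangement is shared by many of the 36 genes. Each window runs from 250 bases before to 50 bases after the start of the gene on its own strand, from RefSeq on GRCh38.p14. Capitals mark TTTGAA or TTTAAA, the CHR letters, and CCAAT, each on either strand, so that TTCAAA and ATTGG are their reverse complements. TTTAAA is its own reverse complement and was counted once, and in the MKI67 window one CHR match shares letters with an ATTGG. The windows are chr5:69166900-69167199 on the plus strand for CCNB1, chr10:60778228-60778527 on the plus strand for CDK1, chr10:128126374-128126673 on the minus strand for MKI67, chr17:40417847-40418146 on the minus strand for TOP2A and chr1:43358731-43359030 on the plus strand for CDC20.
CCNB1: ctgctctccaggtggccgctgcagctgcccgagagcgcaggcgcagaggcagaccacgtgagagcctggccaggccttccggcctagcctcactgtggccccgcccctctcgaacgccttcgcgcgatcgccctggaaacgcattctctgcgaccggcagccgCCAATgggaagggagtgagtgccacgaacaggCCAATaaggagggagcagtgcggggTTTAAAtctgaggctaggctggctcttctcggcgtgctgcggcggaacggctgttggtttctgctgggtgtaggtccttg
CDK1: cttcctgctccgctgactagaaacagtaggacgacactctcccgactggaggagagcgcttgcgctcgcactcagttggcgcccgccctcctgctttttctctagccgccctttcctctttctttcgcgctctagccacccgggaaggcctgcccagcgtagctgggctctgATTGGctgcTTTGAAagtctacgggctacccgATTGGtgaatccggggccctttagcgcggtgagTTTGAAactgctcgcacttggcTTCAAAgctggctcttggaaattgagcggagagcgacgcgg
MKI67: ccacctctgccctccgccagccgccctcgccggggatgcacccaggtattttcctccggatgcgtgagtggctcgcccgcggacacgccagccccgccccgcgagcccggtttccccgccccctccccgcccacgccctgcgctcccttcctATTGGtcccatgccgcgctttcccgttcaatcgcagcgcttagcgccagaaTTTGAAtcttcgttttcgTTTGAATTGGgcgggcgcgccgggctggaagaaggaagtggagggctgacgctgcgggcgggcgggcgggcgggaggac
TOP2A: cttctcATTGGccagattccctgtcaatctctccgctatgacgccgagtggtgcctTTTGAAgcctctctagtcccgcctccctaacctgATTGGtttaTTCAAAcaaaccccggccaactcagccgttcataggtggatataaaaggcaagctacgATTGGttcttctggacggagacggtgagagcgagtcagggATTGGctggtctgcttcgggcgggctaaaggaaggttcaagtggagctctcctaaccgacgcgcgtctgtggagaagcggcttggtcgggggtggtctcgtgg
CDC20: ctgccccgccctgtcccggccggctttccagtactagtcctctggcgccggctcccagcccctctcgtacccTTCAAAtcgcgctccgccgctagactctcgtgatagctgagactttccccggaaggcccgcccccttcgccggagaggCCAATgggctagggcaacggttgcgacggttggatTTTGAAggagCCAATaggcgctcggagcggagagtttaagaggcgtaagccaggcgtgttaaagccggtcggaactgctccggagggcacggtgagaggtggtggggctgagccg

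In the CCNB1 window, CCAAT stood 87 and 55 bases before the start and TTTAAA stood 30 bases before it. Of the 36 genes, 30 matched an entry by symbol, and AURKA, TPX2, BIRC5, UBE2C, TTK and FOXM1 had none. The CHR letters were found in 26 of the 30 genes (86.7%), against 24% of all 35116 windows in the table. CCAAT was found in 25 of the 30 (83.3%), against 34.6% of all windows, and at least 2 CCAAT were found in 18 (60%), against 10.8%. Both the CHR letters and at least 2 CCAAT were present in 16 genes (53.3%), against 2.73% of all windows. Some genes have several overlapping windows, so that the shares were also taken per gene over the 27305 genes of the table, where 27.9% held the CHR letters, 39.7% held CCAAT and 3.34% held the CHR letters with at least 2 CCAAT. A match of letters describes the sequence only and does not show that a factor binds there.

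**Figure D1:**
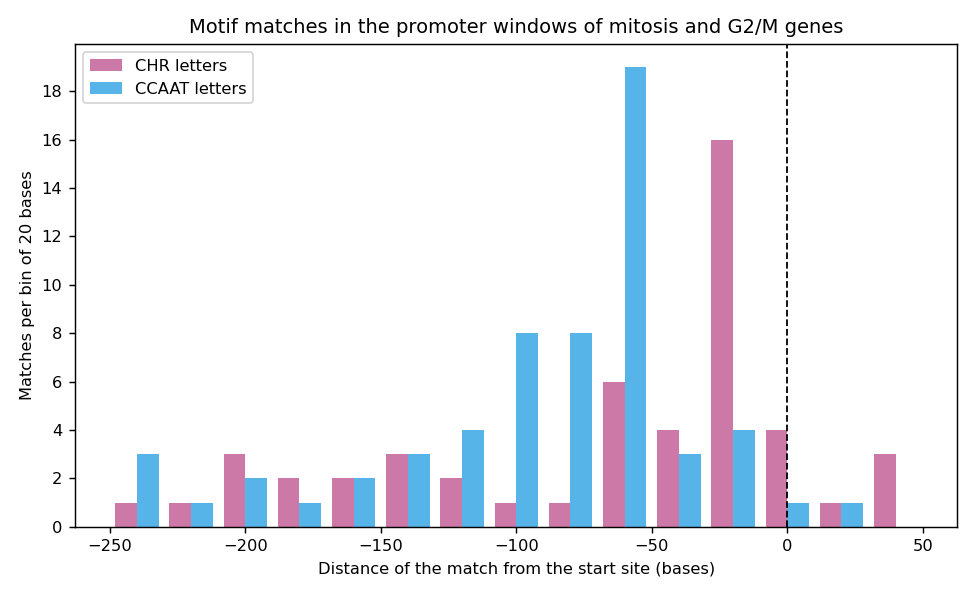
Number of matches of the CHR letters (TTTGAA or TTTAAA) and of CCAAT per bin of 20 bases (y axis) against the distance of the match from the start site in bases (x axis, negative before the start), over all promoter windows of the 30 matched genes, overlapping windows of a gene included. The fullest CHR bin holds 16 of 50 matches, 30 to 11 bases before the start, and the fullest CCAAT bin holds 19 of 60 matches, 70 to 51 bases before it.

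Library totals ran from 8010178 to 16054003 counts. Levels are in CPM, the reads of a gene relative to a library's total as scaled with TMM factors, and are compared between libraries and not between genes. The 2 libraries of each group correlated with r between 0.963 and 0.981. In libraries with a knockdown of KAT2A (KAT2A_KD and KAT2AB_KD), KAT2A had 1.67 to 10.4 CPM, against 9.995 to 38.5 CPM in NT. In libraries with a knockdown of KAT2B, KAT2B had 0.152 to 18.9 CPM, against 4.06 to 44.8 CPM in NT. At each stage every such library was below both NT libraries. At Differentiated the KAT2AB_KD libraries differed between each other, with 1.98 and 6.85 CPM of KAT2A and 5.85 and 18.9 CPM of KAT2B, against 12.8 and 9.995 CPM of KAT2A and 44.8 and 40.4 CPM of KAT2B in NT. The keratinocyte markers KRT5, KRT14, TP63, KRT6A, ITGA6 and SFN summed to 19858 CPM or more in every library. Of 6 melanocyte markers, TYR had 0 reads in all 24 libraries, MITF and SOX10 reached 11.7 and 6.77 CPM, and PMEL had 2.78 to 8.30 CPM at Differentiated and 0.186 to 1.399 CPM before. Of 4 immune markers, CD3E had 0 reads in all 24 libraries, and CD68 had 25.2 to 60.9 CPM at Differentiated and 13.8 to 23.2 CPM before. Of 6 fibroblast markers, COL1A1 had 31.01 to 51.1 CPM at Differentiated and 1.07 to 7.27 CPM before, and COL1A2, COL3A1, PDGFRB, LUM and DCN had at most 1.75 CPM in any library. The part of these genes in the stage changes was not tested. For 10 of the 36 genes (ANLN, CCNA2, CDC25C, CENPA, FOXM1, HMMR, KIF20A, KIF4A, PLK1 and PRC1), an exon overlaps that of another counted gene in the GENCODE annotation, and since the strand setting of the counting is not given in the sources used here, their counts are less certain.

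Before differentiation the 36 genes were abundant in every genotype. Summed over the 36, their level was 2140.7 to 2564.4 CPM in the 8 Subconfluent libraries and 2126.7 to 3005 CPM in the 8 Confluent libraries. CCNB1, the B-type cyclin that activates CDK1, had 131 to 178 CPM at Subconfluent and 180 to 266 CPM at Confluent. MKI67, which encodes the proliferation marker Ki-67, had 127 to 274 CPM at Subconfluent and 102 to 268 CPM at Confluent. The ranges of the stages overlapped for the sum and for MKI67, and for CCNB1 they lay next to each other without overlap.

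Confluent cells were compared with Subconfluent cells within each genotype. With edgeR's quasi-likelihood test and Benjamini-Hochberg adjustment, 0 of the 36 genes passed an adjusted p of 0.05 in KAT2A_KD, KAT2B_KD, KAT2AB_KD or NT. Over all genes tested, the shares called in either direction were 0.235% in KAT2A_KD, 1.61% in KAT2B_KD, 0.609% in KAT2AB_KD and 0.901% in NT. At an unadjusted p under 0.05 there were 0 in KAT2A_KD, 3 in KAT2B_KD, 2 in KAT2AB_KD and 1 in NT, and DESeq2 called 1 in KAT2B_KD and 0 in each of the others. Of all 15757 genes, 984, 2071, 1343 and 1827 had an unadjusted p under 0.05 in that order. The median log2 fold change of the 36 was 0.14 in KAT2A_KD, 0.04 in KAT2B_KD, 0.35 in KAT2AB_KD and 0.06 in NT. CDC20, the activator of the anaphase-promoting complex that starts chromosome separation, had the lowest p in KAT2B_KD and in NT. It had 225 and 246 CPM in Confluent KAT2B_KD, against 157 and 146 CPM in Subconfluent KAT2B_KD. The libraries did not overlap, but the adjusted p was 0.167.

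The knockdowns were then compared with NT at these same stages, where the 3 comparisons of a stage share the NT libraries. By edgeR's test with adjusted p, 0 of the 36 genes passed in any of the 6 comparisons. Over all genes, the shares called in either direction at Subconfluent were 0.343% in KAT2A_KD, 0.0888% in KAT2B_KD and 2.7% in KAT2AB_KD, and at Confluent 0.647%, 0.463% and 2.28%. At Subconfluent the median log2 fold change over NT was 0.21 in KAT2A_KD, 0.08 in KAT2B_KD and 0.01 in KAT2AB_KD, with 0, 0 and 1 genes at an unadjusted p under 0.05 and 0 by DESeq2 in each. At Confluent the medians were 0.24, 0.10 and 0.26, with 2, 0 and 2 genes at an unadjusted p under 0.05, and DESeq2 called 1 gene in KAT2AB_KD and 0 in the other two. Of all 15757 genes, 896, 705 and 2315 had an unadjusted p under 0.05 at Subconfluent, and 1221, 1076 and 2060 at Confluent. MKI67 had 177 and 262 CPM in Confluent KAT2A_KD and 268 and 214 CPM in Confluent KAT2AB_KD, against 102 and 111 CPM in Confluent NT. All of those knockdown libraries were above both NT libraries, and the adjusted p was 0.366 for KAT2A_KD and 0.115 for KAT2AB_KD.

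**Figure D2:**
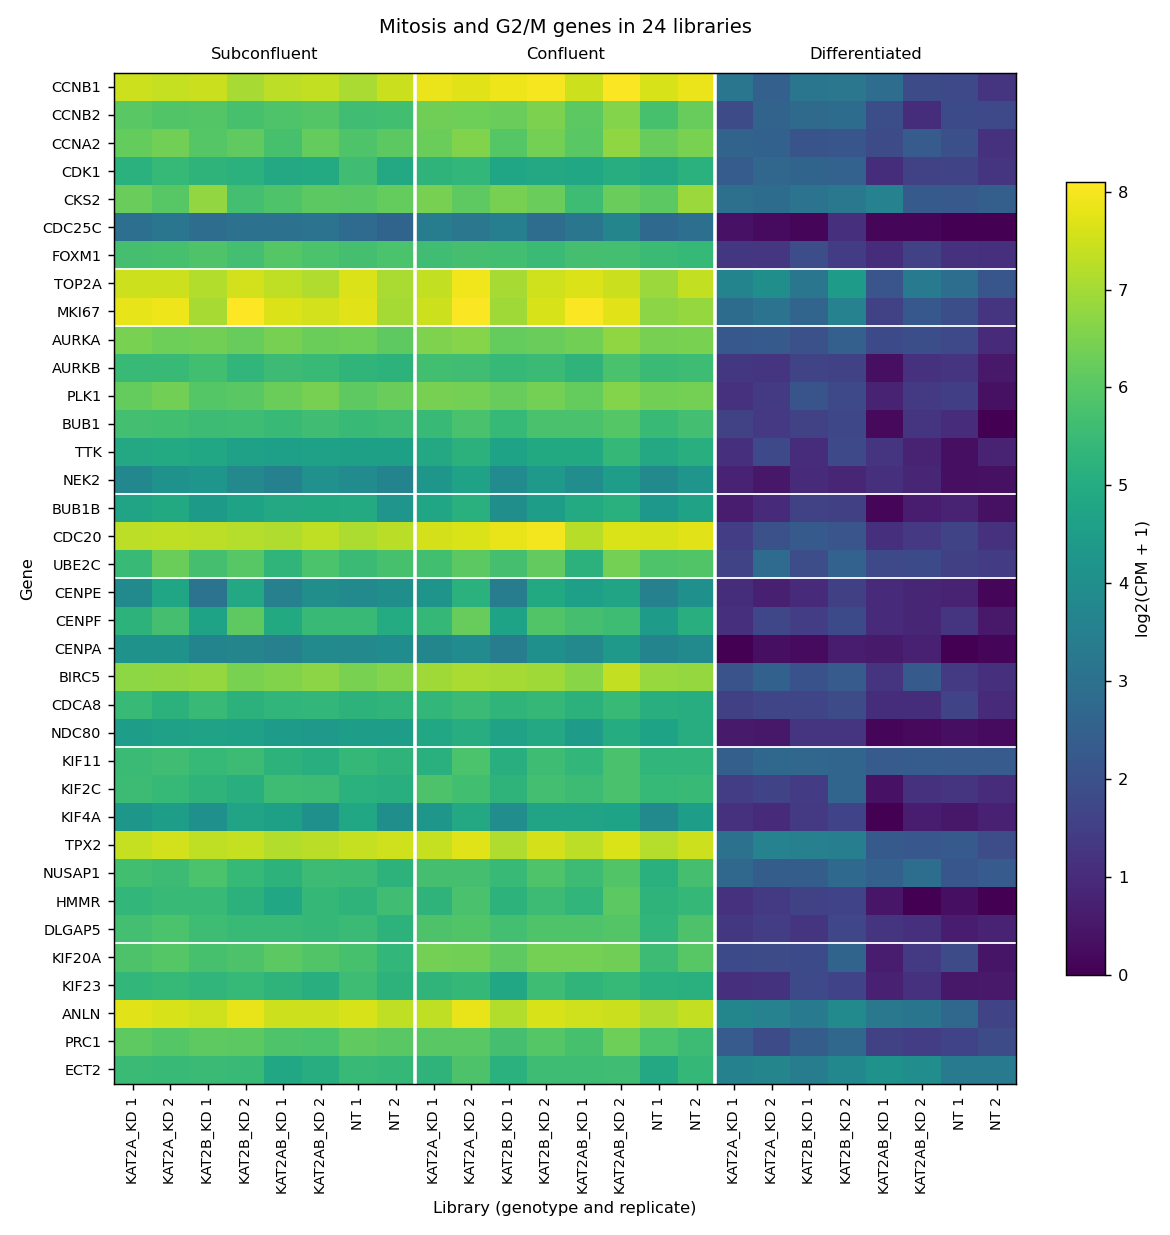
Level of each of the 36 genes (rows, grouped by role) in each of the 24 libraries (columns, by stage and then genotype and replicate), as log2(CPM + 1) on the colour scale. The Subconfluent and Confluent columns look alike, with summed levels of 2126.7 to 3005 CPM, and the 8 Differentiated columns are dark, with summed levels of 53.4 to 175.7 CPM.

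On differentiation all 36 genes fell in every genotype. The comparison of Differentiated with Confluent cells called 36 of 36 lower in KAT2A_KD, KAT2B_KD, KAT2AB_KD and NT, where edgeR called 21.7%, 20.3%, 23.6% and 26.1% of all genes lower in those genotypes and 21.4%, 19.3%, 22.6% and 24.3% higher. Both Differentiated libraries were below both Confluent libraries for all 36 in each genotype, where this held for 36.3%, 33.4%, 34.2% and 39.3% of all genes. The highest adjusted p of any of them was 1.6e-05 in KAT2A_KD, 0.00016 in KAT2B_KD, 1.8e-05 in KAT2AB_KD and 3.9e-05 in NT. The median log2 fold change of the 36 was -4.87 in KAT2A_KD, -4.02 in KAT2B_KD, -5.38 in KAT2AB_KD and -5.34 in NT, beside medians of all genes within 0.02 of 0. In bulk RNA, fewer dividing cells and less of these transcripts per cell cannot be told apart.

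The cyclins, CDK1 and their activators fell together. CCNB1 had 8.11 and 4.58 CPM in Differentiated KAT2A_KD, 8.14 and 8.30 CPM in KAT2B_KD, 6.43 and 2.66 CPM in KAT2AB_KD and 2.45 and 1.32 CPM in NT, against 180 to 266 CPM in the Confluent libraries. Its log2 fold change was -5.12 ± 0.36 (SE) in KAT2A_KD, -4.91 ± 0.35 in KAT2B_KD, -5.62 ± 0.37 in KAT2AB_KD and -6.82 ± 0.40 in NT. CDK1, the kinase that drives entry into mitosis, kept more of its level. It had 4.09 and 5.39 CPM in Differentiated KAT2A_KD, 5.14 and 4.86 CPM in KAT2B_KD, 1.07 and 2.05 CPM in KAT2AB_KD and 2.19 and 1.32 CPM in NT, against 25.97 to 40.3 CPM in the Confluent libraries. FOXM1, a transcription factor for G2/M genes, had 1.47 and 1.44 CPM in Differentiated KAT2A_KD, 2.81 and 1.64 CPM in KAT2B_KD, 1.07 and 2.05 CPM in KAT2AB_KD and 1.23 and 1.13 CPM in NT, against 42.4 to 51.8 CPM at Confluent. Its fold change ran from -5.20 ± 0.27 in NT to -4.41 ± 0.25 in KAT2B_KD on the log2 scale.

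Among the mitotic kinases, AURKA, which builds the spindle poles, had 3.69 and 3.95 CPM in Differentiated KAT2A_KD, 2.99 and 4.63 CPM in KAT2B_KD, 2.55 and 2.89 CPM in KAT2AB_KD and 2.45 and 0.943 CPM in NT, against 71.8 to 108 CPM at Confluent. PLK1, the polo-like kinase of centrosomes and kinetochores, had 1.23 and 1.62 CPM in Differentiated KAT2A_KD, 3.27 and 2.47 CPM in KAT2B_KD, 0.742 and 1.60 CPM in KAT2AB_KD and 1.84 and 0.283 CPM in NT, against 72.4 to 94.9 CPM at Confluent. BUB1, a kinase of the spindle checkpoint, had 1.97 and 1.53 CPM in Differentiated KAT2A_KD, 2.06 and 2.39 CPM in KAT2B_KD, 0.165 and 1.37 CPM in KAT2AB_KD and 1.05 and 0 CPM in NT, against 41.7 to 61.6 CPM at Confluent. In each of these kinases NT replicate 2 was the lowest of the 8 Differentiated libraries. That library was the lowest of the 8 for 18 of the 36 genes, and for 13.7% of all genes tested.

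CDC20 had one of the deepest falls in every genotype. It had 1.80 and 3.05 CPM in Differentiated KAT2A_KD, 3.93 and 3.44 CPM in KAT2B_KD, 1.15 and 1.52 CPM in KAT2AB_KD and 2.19 and 1.23 CPM in NT, against 150 to 246 CPM at Confluent. The log2 fold change was -6.33 ± 0.28 in KAT2A_KD, -6.00 ± 0.27 in KAT2B_KD, -7.02 ± 0.29 in KAT2AB_KD and -6.88 ± 0.29 in NT. Of the centromere and kinetochore genes, BIRC5, which encodes survivin of the chromosomal passenger complex, had 3.19 and 4.76 CPM in Differentiated KAT2A_KD, 3.09 and 3.96 CPM in KAT2B_KD, 1.40 and 3.88 CPM in KAT2AB_KD and 1.58 and 1.13 CPM in NT. At Confluent it had 100.5 to 162 CPM.

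Several kinetochore and spindle genes were near the limit of detection after differentiation. CENPA, the centromeric histone H3 variant, had 3 reads in Differentiated KAT2A_KD, 9 in KAT2B_KD, 15 in KAT2AB_KD and 1 in NT, summed over both libraries, against 282, 293, 526 and 335 reads at Confluent. CDC25C, a phosphatase that activates CDK1, had 6 reads in Differentiated KAT2A_KD, 17 in KAT2B_KD, 2 in KAT2AB_KD and 0 in NT, against 169 reads in Confluent NT. Its level in Differentiated NT was thus at least 46.3-fold lower than in Confluent NT, taking a floor of 3 counts over the group. HMMR, a microtubule-binding protein of the spindle, had 33 reads in Differentiated KAT2A_KD, 50 in KAT2B_KD, 5 in KAT2AB_KD and 3 in NT, against 1063 in Confluent NT. The ratio of Differentiated to Confluent NT was 0.00343 (95% counting interval 0.000707 to 0.0101). NDC80, the kinetochore subunit that grips microtubules, had 11 reads in Differentiated KAT2A_KD, 32 in KAT2B_KD, 3 in KAT2AB_KD and 5 in NT.

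At the other end, ECT2 kept the largest share of its level in all 4 genotypes. ECT2 encodes the exchange factor that activates RhoA for cytokinesis. It had 10.8 and 11.9 CPM in Differentiated KAT2A_KD, 9.63 and 12.8 CPM in KAT2B_KD, 16.6 and 14.7 CPM in KAT2AB_KD and 9.02 and 8.96 CPM in NT, against 28.6 to 56.4 CPM at Confluent. That is 24.1% of the Confluent mean in KAT2A_KD, 27.3% in KAT2B_KD, 32.8% in KAT2AB_KD and 25.8% in NT. KIF11, the motor that pushes spindle poles apart, was the next gene of this kind in NT and kept 10.2%, with 3.99 ± 0.049 CPM in Differentiated NT (SD, n = 2) and 39.0 ± 0.15 CPM in Confluent NT. NUSAP1, which bundles spindle microtubules, had 4.21 to 6.54 CPM in the Differentiated knockdown libraries and 3.504 and 3.96 CPM in Differentiated NT, against 33.997 to 58.9 CPM at Confluent. CKS2, a small subunit of CDK complexes, kept 12.2% of its Confluent mean in KAT2AB_KD, and its replicates there were far apart at 10.96 and 3.96 CPM. BUB1B, a checkpoint protein that holds back the anaphase-promoting complex, kept 10.4% in KAT2B_KD, with 2.06 and 1.87 CPM there at Differentiated and 15.4 and 22.4 CPM at Confluent. In the single knockdowns CDK1 kept the largest share after ECT2, at 12.2% in KAT2A_KD and 18.2% in KAT2B_KD. KIF11 came next there, at 11.4% and 13.4%.

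The residual level after differentiation varied with genotype. Summed over the 36 genes it was 122 and 140 CPM in KAT2A_KD, 132 and 176 CPM in KAT2B_KD, 88.7 and 93.4 CPM in KAT2AB_KD and 76.7 and 53.4 CPM in NT. All 6 knockdown libraries were above both NT libraries, and the 4 libraries of the single knockdowns were above both of KAT2AB_KD. For KAT2AB_KD the order in the sum leaned on few genes. In replicate 1, ECT2 had 16.6 CPM in KAT2AB_KD and 9.02 CPM in NT, and CKS2 had 10.96 and 3.77 CPM. These differences together exceed that between the sums of these libraries, 88.7 and 76.7 CPM. As a share of the Confluent level, the median gene kept 3.38% in KAT2A_KD, 6.14% in KAT2B_KD, 2.39% in KAT2AB_KD and 2.42% in NT, and the sum kept 4.71%, 6.04%, 3.32% and 2.81%. The genotype with the highest mean level was KAT2B_KD for 26 genes, KAT2A_KD for 6 and KAT2AB_KD for 4. The lowest mean was in NT for 25 genes and in KAT2AB_KD for 11. These orders were not counted over all genes, and the 36 genes share the same libraries.

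**Figure D3:**
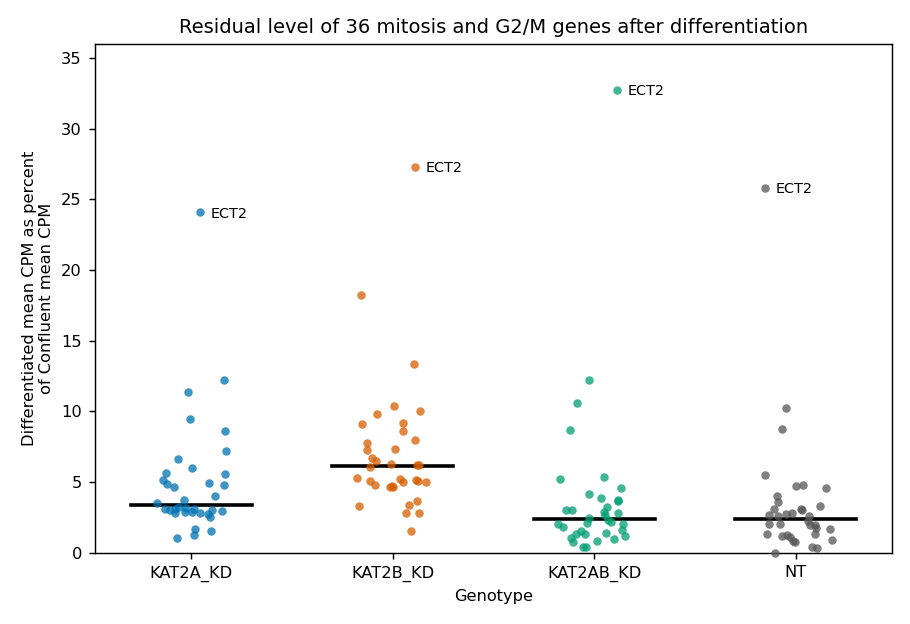
Mean CPM at Differentiated as a percent of mean CPM at Confluent (y axis) for each of the 36 genes (points) in each genotype (x axis), with the median as a black line. The medians are 3.38% in KAT2A_KD, 6.14% in KAT2B_KD, 2.39% in KAT2AB_KD and 2.42% in NT, and the labelled gene ECT2 stands above the other 35 in each genotype.

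Markers of differentiation also differed between the knockdown libraries and NT in their sum. Summed over KRT1, KRT10, IVL, LOR, FLG, TGM1 and DSG1, they had 16693 to 29211 CPM in the 6 Differentiated knockdown libraries, against 36798 and 46615 CPM in Differentiated NT, and every knockdown library was below both NT libraries. The knockdowns overlapped with each other, at 29211 and 16693 CPM in KAT2A_KD, 26874 and 19350 CPM in KAT2B_KD and 24368 and 16957 CPM in KAT2AB_KD. By edgeR's test with adjusted p, 0 of the 7 were lower than in NT in KAT2A_KD (2 had an unadjusted p under 0.05 and DESeq2 called 1), 3 in KAT2B_KD (IVL, LOR and FLG) and 1 in KAT2AB_KD (KRT1), and none was higher. Of all 15757 genes, edgeR called 47, 501 and 184 lower in that order, and 2062 had an unadjusted p under 0.05 in KAT2A_KD. FLG, the filaggrin gene of the granular layer, had 11081 and 3491 CPM in Differentiated KAT2A_KD, 1149 and 2323 CPM in KAT2B_KD and 11139 and 8856 CPM in KAT2AB_KD, against 16340 and 11555 CPM in Differentiated NT. LOR, the loricrin gene of the cornified envelope, had 89.99 and 31.9 CPM in Differentiated KAT2A_KD, 3.37 and 3.36 CPM in KAT2B_KD and 29.99 and 30.04 CPM in KAT2AB_KD, against 78.0 and 81.0 CPM in Differentiated NT. KRT1, an early differentiation keratin, had 5842 and 4182 CPM in Differentiated KAT2A_KD, 10600.3 and 6312 CPM in KAT2B_KD and 3735 and 2248 CPM in KAT2AB_KD, against 11819 and 10060 CPM in Differentiated NT. Single markers did not all follow the sum, and KRT1 in KAT2B_KD replicate 1 and LOR in KAT2A_KD replicate 1, for example, were not below both NT libraries. TP63, a transcription factor of basal keratinocytes, averaged 217 ± 14 CPM in Differentiated KAT2B_KD and 99.3 ± 14 CPM in Differentiated NT (SD, n = 2 each). It had 177 and 139 CPM in Differentiated KAT2A_KD and 90.8 and 99.3 CPM in KAT2AB_KD. At Confluent it already had 231 to 293 CPM in the knockdown libraries, against 169 and 160 CPM in NT. Of the other keratinocyte markers, KRT5 was above both NT libraries in Differentiated KAT2A_KD and KAT2B_KD and below both in KAT2AB_KD. ITGA6 was above both NT libraries in KAT2A_KD and KAT2AB_KD and overlapped with NT in KAT2B_KD. KRT14, KRT6A and SFN overlapped with NT in each knockdown. The part of these markers in the residual levels of the mitotic genes was not tested.

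Between Differentiated KAT2A_KD and NT, 4 of the 36 genes were higher and 0 lower by edgeR's test, where 0.92% of all genes were called higher. DESeq2 called 12 of the 36, edgeR without the filter on low counts 13, and edgeR with library totals alone 2. The 4 were TPX2, ANLN, CCNB1 and CDK1. TPX2, which activates AURKA on spindle microtubules, had 7.37 and 11.05 CPM in Differentiated KAT2A_KD, against 3.94 and 2.74 CPM in Differentiated NT. Both knockdown libraries were above both of NT, with a log2 fold change of 1.45 ± 0.26 and an adjusted p of 0.0067. ANLN, the anillin scaffold of the contractile ring, had 12.04 and 11.05 CPM in KAT2A_KD, against 5.61 and 2.17 CPM in NT, with a log2 fold change of 1.56 ± 0.32 and an adjusted p of 0.0224. CCNB1 differed by 1.74 ± 0.39 and CDK1 by 1.42 ± 0.33 on the log2 scale, with adjusted p of 0.0361 and 0.0425.

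The median of the 36 log2 fold changes over NT was 1.079 in KAT2A_KD, or 1.04 with CDC25C at its bound, against 0.01 over all genes. Both KAT2A_KD libraries were above both NT libraries for 26 of the 36, where this held for 22.6% of all genes. The calls rested on single libraries. Of the 4 genes, 0 passed without NT replicate 2, only TPX2 without KAT2A_KD replicate 1, only CCNB1 without KAT2A_KD replicate 2, and TPX2 and ANLN without NT replicate 1. CDK1 passed in none of these fits, where its adjusted p was 0.0726 to 0.375.

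KAT2B_KD had the largest number of calls. Between Differentiated KAT2B_KD and NT, 16 of the 36 genes were higher and 0 lower, where edgeR called 1.67% of all genes higher. DESeq2 called 22, edgeR without the filter 27, and edgeR with library totals alone 8. The median log2 fold change was 1.499, against 0.02 over all genes, and both KAT2B_KD libraries were above both NT libraries for 35 of the 36, where this held for 20.6% of all genes. The 16 covered every role: CCNB1, CCNB2, CDK1 and CDC25C of the cyclins and CDK activators, AURKA of the kinases, BUB1B and CDC20 of the checkpoint and anaphase genes, NDC80 of the kinetochore, KIF2C, TPX2, HMMR and DLGAP5 of the spindle, KIF23, ANLN and PRC1 of cytokinesis, and MKI67.

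The 6 genes with the lowest p were TPX2, NDC80, KIF23, CCNB1, HMMR and ANLN. TPX2 had 10.6 and 9.94 CPM in Differentiated KAT2B_KD, against 3.94 and 2.74 CPM in Differentiated NT, a log2 fold change of 1.61 ± 0.26 with an adjusted p of 0.000994. NDC80 had 1.31 and 1.35 CPM in KAT2B_KD, against 0.263 and 0.189 CPM in NT, a log2 fold change of 2.50 ± 0.44 with an adjusted p of 0.00236. KIF23, a kinesin of the central spindle, had 2.43 and 2.09 CPM in KAT2B_KD, against 0.438 and 0.472 CPM in NT, a log2 fold change of 2.29 ± 0.41 with an adjusted p of 0.0024. In all 3 genes the KAT2B_KD libraries lay close together and well above both NT libraries.

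CCNB1 differed by 2.11 ± 0.39 on the log2 scale (adjusted p = 0.00314) and ANLN by 1.54 ± 0.32 (adjusted p = 0.00811). HMMR had 2.06 and 2.09 CPM in KAT2B_KD, against 0.263 and 0 CPM in NT, and the ratio of the summed reads was 15.2 (95% counting interval 4.93 to 76.4, adjusted p = 0.00538). CDC25C, with 0 reads in NT, was at least 5.18-fold higher in KAT2B_KD, although its KAT2B_KD libraries were apart at 0.0935 and 1.196 CPM. MKI67 had 5.24 and 10.99 CPM in KAT2B_KD, against 2.89 and 1.32 CPM in NT, with a log2 fold change of 1.94 ± 0.47 and an adjusted p of 0.0208. Its level was 6.22 and 7.54 CPM in KAT2A_KD and 2.06 and 3.73 CPM in KAT2AB_KD at this stage, and neither passed against NT. TOP2A, the topoisomerase that untangles sister chromosomes, had 8.04 and 20.6 CPM in KAT2B_KD, 11.6 and 15.45 CPM in KAT2A_KD and 3.38 and 8.90 CPM in KAT2AB_KD, against 6.66 and 3.49 CPM in NT, and it passed in none of these comparisons. Of the 16 genes called in KAT2B_KD, 3 still passed without NT replicate 2, 6 without KAT2B_KD replicate 2, 10 without NT replicate 1 and 12 without KAT2B_KD replicate 1. TPX2, NDC80 and KIF23 passed with each of the 4 libraries left out in turn. CCNB2 and BUB1B passed in none of these fits, with adjusted p of 0.102 to 0.179 and 0.0632 to 0.27.

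Differentiated KAT2AB_KD cells differed less from NT. By edgeR, 0 of the 36 genes passed in either direction, where 1.57% of all genes were called higher and 1.17% lower. There were 8 genes at an unadjusted p under 0.05, beside 2485 of all 15757 genes, and DESeq2 called 3 of the 36. The median log2 fold change was 0.45, or 0.43 with CDC25C at its bound. Both KAT2AB_KD libraries were above both NT libraries for 14 genes and below both for 2, where these held for 21.9% and 19.7% of all genes. CENPA had 0.494 and 0.684 CPM in KAT2AB_KD, against 0 and 0.0943 CPM in NT, a ratio of summed reads of 13.1 (95% counting interval 2.01 to 550).

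**Figure D4:**
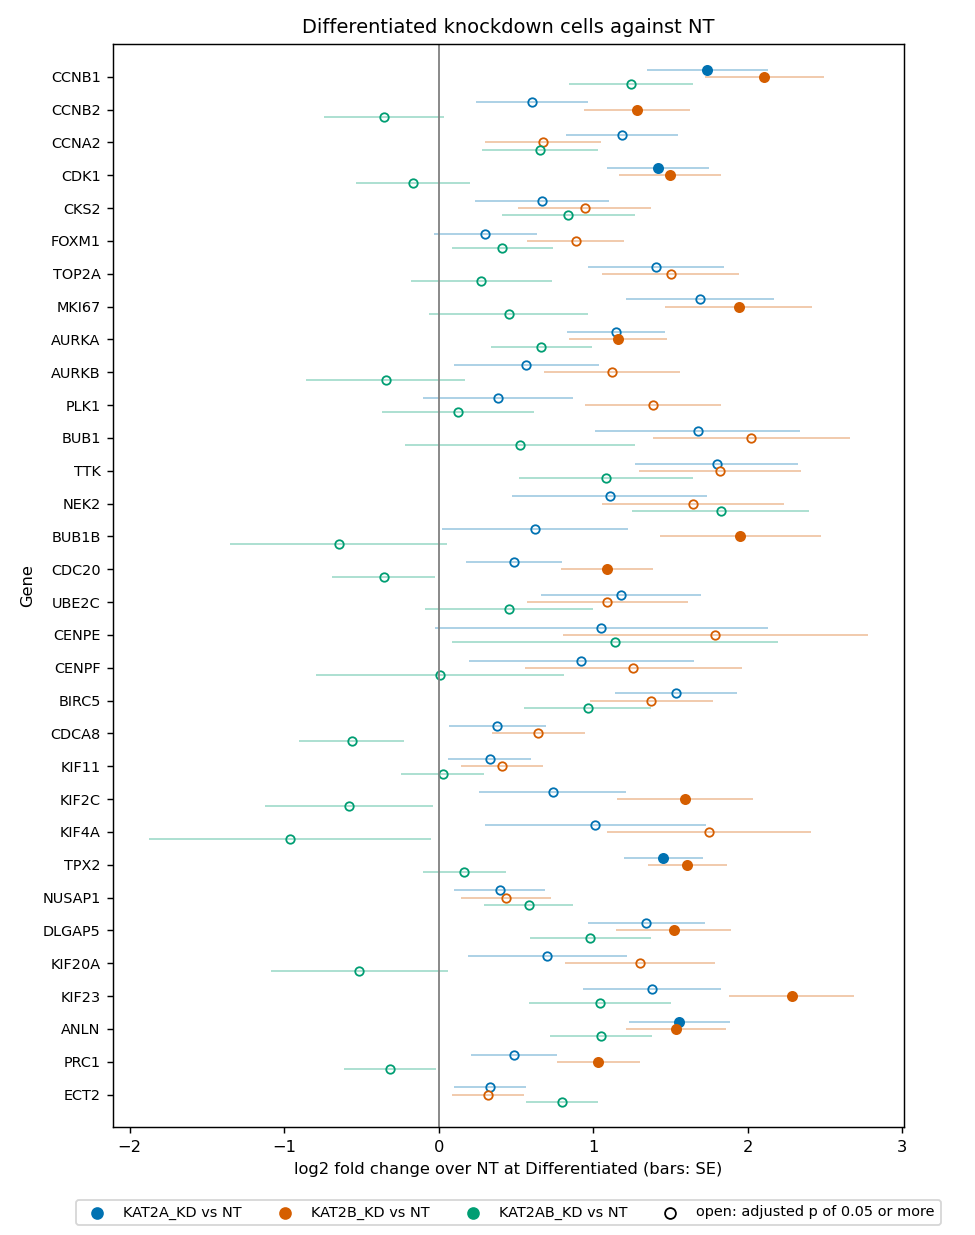
Log2 fold change over NT at Differentiated (x axis, bars are SE derived from the test's F statistic) of 32 of the 36 genes (y axis, by role) in KAT2A_KD, KAT2B_KD and KAT2AB_KD, each from 2 libraries a group and sharing the NT libraries. Filled points passed an adjusted p of 0.05, and 4 genes with 3 or fewer reads in a Differentiated group are left out; the KAT2A_KD and KAT2B_KD points lie right of 0 throughout, and the KAT2AB_KD points lie on both sides.

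The knockdowns were also compared with each other at Differentiated. In KAT2AB_KD, 16 of the 36 genes were lower than in KAT2B_KD and 0 higher, where edgeR called 4.54% of all genes lower, with a median log2 fold change of -1.23. TPX2 had 3.96 and 3.58 CPM in KAT2AB_KD, against 10.6 and 9.94 CPM in KAT2B_KD, a log2 fold change of -1.44 ± 0.25 with an adjusted p of 0.000801. CDK1 had 1.07 and 2.05 CPM in KAT2AB_KD, against 5.14 and 4.86 CPM in KAT2B_KD, a log2 fold change of -1.66 ± 0.33 with an adjusted p of 0.00262. NDC80 had 0.0824 and 0.152 CPM in KAT2AB_KD, against 1.31 and 1.35 CPM in KAT2B_KD, and the ratio of the summed reads was 0.0893 (95% counting interval 0.0175 to 0.285, adjusted p = 0.00017). In each of these genes the groups did not overlap.

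PRC1, which bundles the microtubules of the central spindle, had 2.06 and 1.75 CPM in KAT2AB_KD, against 4.21 and 5.46 CPM in KAT2B_KD, with a log2 fold change of -1.35 ± 0.27 and an adjusted p of 0.00319. HMMR had 0.412 and 0 CPM in KAT2AB_KD, against 2.06 and 2.09 CPM in KAT2B_KD, with a log2 fold change of -3.33 ± 0.69 and an adjusted p of 0.00365. CDC20 had 1.15 and 1.52 CPM in KAT2AB_KD, against 3.93 and 3.44 CPM in KAT2B_KD, with a log2 fold change of -1.45 ± 0.30 and an adjusted p of 0.00382. The other 10 were BUB1B, KIF2C, CCNB2, CDCA8, KIF4A, KIF23, KIF20A, MKI67, AURKB and CDC25C. With library totals alone edgeR called 9 genes. Of the 16, 7 still passed without KAT2AB_KD replicate 1, 9 without KAT2B_KD replicate 2, 11 without KAT2AB_KD replicate 2 and 13 without KAT2B_KD replicate 1, and CDK1, CDC20, TPX2, PRC1 and NDC80 passed each time.

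Against KAT2A_KD, 2 of the 36 genes were lower in KAT2AB_KD and 0 higher, where 0.19% of all genes were called lower. TPX2 had 3.96 and 3.58 CPM in KAT2AB_KD, against 7.37 and 11.05 CPM in KAT2A_KD, with a log2 fold change of -1.29 ± 0.25 and an adjusted p of 0.0352. CDK1 differed by -1.58 ± 0.33 with an adjusted p of 0.0439. These calls fell to 0 without KAT2A_KD replicate 2 or without KAT2AB_KD replicate 1, and to 1 without either of the other libraries. Without the filter edgeR called 6 genes, and with library totals alone 0. Between KAT2A_KD and KAT2B_KD, 0 of the 36 genes passed by edgeR, where 2.38% of all genes were called in either direction. There were 7 at an unadjusted p under 0.05, beside 2255 of all 15757 genes, and 0 of the 36 by DESeq2. The median log2 fold change of KAT2A_KD over KAT2B_KD was -0.36.

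Across the 8 Differentiated libraries, all 4 libraries of KAT2A_KD and KAT2B_KD were above both of NT for 26 of the 36 genes, where this held for 10.3% of all genes tested. For 12 of these, namely CDK1, MKI67, AURKA, BUB1, KIF11, KIF2C, KIF4A, TPX2, HMMR, ANLN, NDC80 and CDC25C, the same 4 libraries were above those of both KAT2AB_KD and NT, where this held for 2.65% of all genes. All 6 knockdown libraries were above both of NT for 12 genes, among them CCNB1, ECT2, DLGAP5 and NEK2, where this held for 5.67% of all genes. These counts share the NT libraries with the comparisons above. CDC25C enters each of them with 1 read in KAT2B_KD replicate 1, against 1 read in each KAT2AB_KD library and 0 reads in NT.

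**Figure D5:**
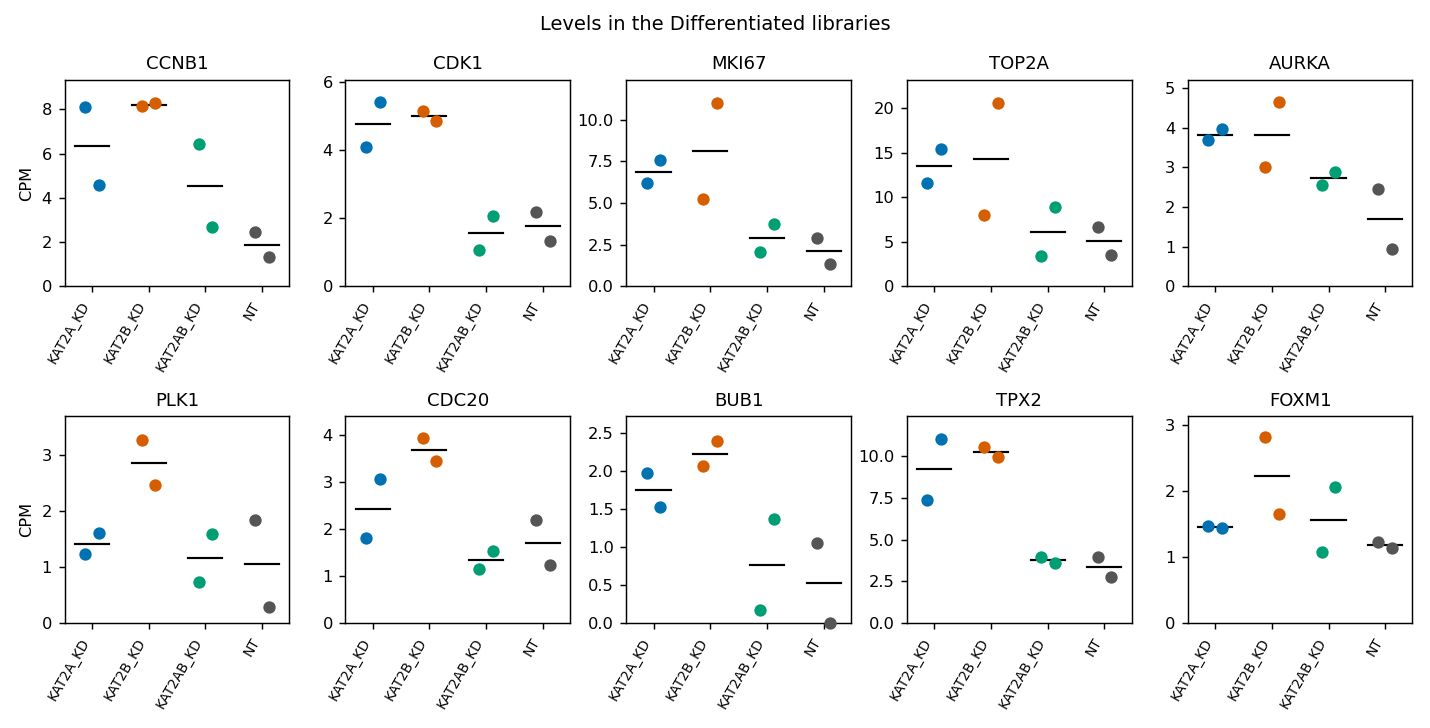
CPM (y axis, from 0) in each Differentiated library (points; black line, mean of 2) of CCNB1, CDK1, MKI67, TOP2A, AURKA, PLK1, CDC20, BUB1, TPX2 and FOXM1, by genotype (x axis). CDK1 and TPX2 show the pattern of 2 levels most plainly, with 4.09 to 5.39 CPM of CDK1 in the single knockdowns against 1.07 to 2.19 CPM in KAT2AB_KD and NT. In CCNB1, TOP2A, PLK1, CDC20 and FOXM1 the single knockdown libraries overlap with those of KAT2AB_KD or NT.

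The last comparison asked whether the change between Confluent and Differentiated itself differed between a knockdown and NT, which removes any difference already present at Confluent. In KAT2B_KD the change was higher, that is a shallower fall, for 4 of the 36 genes and lower for 0, where edgeR called 0.552% of all genes higher. NDC80 differed by 2.61 ± 0.49 on the log2 scale (adjusted p = 0.0223), TPX2 by 1.58 ± 0.33 (adjusted p = 0.0305) and KIF23 by 2.18 ± 0.47 (adjusted p = 0.0349). HMMR was the fourth, with an adjusted p of 0.0416, and its value rests on 3 reads in Differentiated NT. The median over the 36 was 1.36, against 0.03 over all genes. In KAT2A_KD, 0 genes passed by edgeR, 13 had an unadjusted p under 0.05, DESeq2 called 2, and the median was 0.76. In KAT2AB_KD, 0 passed by edgeR, 5 had an unadjusted p under 0.05, DESeq2 called 0, and the median was 0.15. Over all genes edgeR called 0.489% higher in KAT2A_KD and 0.723% higher in KAT2AB_KD. Of all 15757 genes, 1499 in KAT2A_KD and 1910 in KAT2AB_KD had an unadjusted p under 0.05. DESeq2 called 12 genes in KAT2B_KD, edgeR without the filter 15, and edgeR with library totals alone 1. Of the 4 genes, between 0 and 2 still passed without any 1 library. None of the 4 passed without KAT2B_KD Confluent replicate 1, KAT2B_KD Differentiated replicate 1, NT Confluent replicate 2 or NT Differentiated replicate 2.

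Other genes of the same phase fell on differentiation too. Of 54 further mitosis and G2/M genes, 53, 53, 54 and 53 were lower in Differentiated than in Confluent KAT2A_KD, KAT2B_KD, KAT2AB_KD and NT, by edgeR. Over all genes, 21.7%, 20.3%, 23.6% and 26.1% were called lower in that order. At Differentiated, 5 of the 54 were higher in KAT2A_KD than in NT, 8 in KAT2B_KD and 2 in KAT2AB_KD, with medians of 0.81, 0.81 and 0.18 on the log2 scale, and none was lower. Over all genes, 0.92%, 1.67% and 1.57% were called higher in these comparisons. MAD2L1, a spindle checkpoint protein, averaged 3.36 ± 0.69 CPM in KAT2A_KD and 2.84 ± 0.21 CPM in KAT2B_KD, against 0.677 ± 0.16 CPM in NT (SD, n = 2 each), with adjusted p of 0.00308 and 0.00259. In KAT2AB_KD, 13 of the 54 were lower than in KAT2B_KD, where 4.54% of all genes were called lower. MYBL2, which encodes B-MYB, averaged 1.33 ± 0.60 CPM in KAT2AB_KD and 7.62 ± 3.4 CPM in KAT2B_KD, with an adjusted p of 0.000284.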

How the data were processed

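Polyadenylated RNA of 24 libraries was sequenced as single-end reads of directional libraries, per the labels. The authors deposited a table of raw read counts per gene. Per the submitters' processing notes, FastQC, Bowtie2, featureCounts and DESeq2 were used with hg19, and their versions, the annotation and the strand setting are not given in the sources used here. A second deposited table holds a signal per gene that is the count over a size factor (largest relative deviation 5e-07), and it served only as that check. The count table had 1 column that matched no sample, which was not used.

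Counts were fitted in R 4.3.3 with edgeR 4.0.16: filterByExpr by group, TMM factors, and 1 quasi-likelihood fit of all 24 libraries in 12 groups with no covariate (12 residual degrees of freedom, common biological coefficient of variation 0.218). Log2 fold changes come from this fit. Each SE is the size of the log2 fold change over the square root of the F statistic of its quasi-likelihood test. The p-values were adjusted by Benjamini-Hochberg over all 15757 genes within each comparison, of which there were 23. The threshold was an adjusted p of 0.05. The steps were tested on simulated data, with changes set only in genes above a floor of mean counts. Calls that rest on few reads at Differentiated were not checked in this way. Where a group had 0 reads, a bound against 3 counts over the group is given, and with 1 to 3 reads a ratio with a 95% counting interval, both for counting error only. Values per library are given for genes that passed (the 6 with the lowest p where more did), for the 4 largest and 4 smallest falls on differentiation, and for 10 set genes. Other genes are given by range. Values for Confluent against Subconfluent are also given by range, except those of CDC20 in KAT2B_KD, where it had the lowest p. The 36 genes, the lists and the tests were chosen with earlier results of these data known. Alternatives were no filter, DESeq2's size factors (RLE) within edgeR, library totals alone, a replicate term, DESeq2 1.42.0 and leaving out each library. Over all genes tested, libraries with the same replicate number deviated together only weakly (median r 0.12, over 0.1 in 37 of 66 pairs of groups). The numbers were therefore not taken to pair them in the main fit. In the sum of the 36 genes, replicate 2 was above replicate 1 in every Confluent group, for example 2501.1 against 2126.7 CPM in NT. At the other stages this held in each knockdown and not in NT.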

Additional observations from a re-analysis of the deposited data

Results flagged for a closer look

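For 4 genes the change between Confluent and Differentiated differed between KAT2B_KD and NT by a test of the difference itself (edgeR's quasi-likelihood test, Benjamini-Hochberg adjusted p). The difference, KAT2B_KD minus NT on the log2 scale, was 2.61 for NDC80, 1.58 for TPX2, 2.18 for KIF23 and 3.78 for HMMR, with adjusted p of 0.0223, 0.0305, 0.0349 and 0.0416. The HMMR value is a fitted one and depends on 3 reads in Differentiated NT, against 50 reads in Differentiated KAT2B_KD. For NDC80 the groups had 32 reads in Differentiated KAT2B_KD and 5 in Differentiated NT. TPX2 rests on more, with 246 reads in Differentiated KAT2B_KD and 74 in Differentiated NT. With each of 8 libraries left out in turn, NDC80 passed in 3 of the 8 fits, TPX2 and KIF23 in 1 each and HMMR in 0.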

How the results depend on the processing

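The fall of all 36 genes on differentiation was called in all 4 genotypes under every alternative run and without each library in turn. No value that had passed changed its direction. Calls at Differentiated were fewer or more by setting. Without the filter on low counts, the calls were 13 in KAT2A_KD, 27 in KAT2B_KD and 3 in KAT2AB_KD against NT, 6 in KAT2AB_KD against KAT2A_KD, and 2, 15 and 1 for the differences in stage change of KAT2A_KD, KAT2B_KD and KAT2AB_KD. The same setting gave 3 in Confluent KAT2A_KD and 2 in Confluent KAT2AB_KD against NT. With DESeq2 they were 12 in KAT2A_KD and 3 in KAT2AB_KD against NT at Differentiated, 1 in Confluent KAT2AB_KD, 1 in KAT2B_KD for Confluent against Subconfluent, and 2 and 12 for the differences in stage change of KAT2A_KD and KAT2B_KD. Library totals alone gave 2 in KAT2A_KD and 8 in KAT2B_KD against NT, 0 in KAT2AB_KD against KAT2A_KD, 9 against KAT2B_KD, and 1 for the difference in stage change of KAT2B_KD. That scaling moved the median of all genes by -0.44 to -0.33 on the log2 scale for Differentiated against Confluent and by 0.18 for KAT2AB_KD against NT. With the replicate number as a block, 2 genes passed in KAT2AB_KD against NT, and no other count moved by more than 1.5 times. Without 1 library, calls against NT at Differentiated ran from 0 to 4 in KAT2A_KD, 3 to 14 in KAT2B_KD and 0 to 1 in KAT2AB_KD. They ran from 0 to 1 for KAT2AB_KD against KAT2A_KD, 8 to 14 against KAT2B_KD, and for the differences in stage change 0 to 2 in KAT2A_KD and 0 to 5 in KAT2B_KD. The cause of these shifts was not tested. With 2 libraries a group and few reads per gene at Differentiated (566 to 2351 summed over the 36 in a library), differences of low genes are poorly resolved.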

Other observations

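Genes of other phases of the cell cycle gave their own values. All 28 DNA replication genes were lower in Differentiated than in Confluent cells in each genotype by edgeR's test with adjusted p, with median log2 fold changes of -3.27 in KAT2A_KD, -2.96 in KAT2B_KD, -3.86 in KAT2AB_KD and -3.87 in NT. At Differentiated, 7 of the 28 were higher in KAT2B_KD than in NT and 1 in KAT2A_KD, and 12 were lower in KAT2AB_KD than in KAT2B_KD, where 1.67%, 0.92% and 4.54% of all genes were called in these directions. RRM2, the small subunit of ribonucleotide reductase, averaged 13.1 ± 2.9 CPM in Differentiated KAT2B_KD and 4.16 ± 0.68 CPM in Differentiated NT (SD, n = 2 each), with an adjusted p of 0.000601.

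Of 16 genes for CDK inhibitors, pocket proteins and their partners, 7 were higher and 2 lower in Differentiated than in Confluent KAT2A_KD, 4 and 2 in KAT2B_KD, 5 and 2 in KAT2AB_KD, and 8 and 2 in NT. Over all genes, 21.4%, 19.3%, 22.6% and 24.3% were called higher and 21.7%, 20.3%, 23.6% and 26.1% lower in that order, so that the 4 of 16 higher in KAT2B_KD were near the share of all genes. CDKN2B, the p15 inhibitor of CDK4 and CDK6, had log2 fold changes of 4.62, 4.801, 3.95 and 4.94 in that order. RBL1, which encodes p107, had -2.72, -1.74, -1.98 and -2.82. At Differentiated, 0 of the 16 passed by edgeR in any knockdown against NT, with 1, 4 and 4 at an unadjusted p under 0.05 in KAT2A_KD, KAT2B_KD and KAT2AB_KD, and DESeq2 called 1 gene in each. Of all 15757 genes, 2062, 2912 and 2485 had an unadjusted p under 0.05 in that order. The summed level of the 16 was 1147.5 to 1416.9 CPM in the 6 knockdown libraries and 1532.2 and 1621.3 CPM in NT.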
